A study of Arabidopsis thaliana with 6 samples.

Results

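Suberin is a polyester of long fatty acids, glycerol and ferulate that seals the walls of root endodermis cells, seed coats and wound tissue against water and ions. Its fatty acids are elongated, hydroxylated at the far end of the chain, joined to glycerol or ferulate and exported, and a share of them is reduced to primary fatty alcohols. The 10 genes described here encode enzymes of these steps, out of 32833 genes in the deposited count table, and all 10 were found there and passed the filter on low counts. They are the fatty acyl reductase genes FAR1, FAR4 and FAR5, the acyltransferase genes GPAT5 and GPAT7, the hydroxylase genes CYP86A1 and CYP86B1, the feruloyl transferase gene ASFT (HHT1 in the table), and the elongase genes KCS2 and KCS20. FAR1 was chosen by its measured rise in these same libraries, where it was among the strongest increases, and the other 9 were put beside it for their roles with these results known. Their differences between genotypes are therefore given as a description, with no test.

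RNA was counted in whole Arabidopsis thaliana seedlings of the wild-type accession Col-0 and of gi-2, a mutant of the circadian clock and flowering gene GIGANTEA (GI), with 3 libraries per genotype. Both genotypes were grown alike, for 7 d on 0.5x MS medium in days of 8 h light (80 µmol m-2 s-1) and 16 h dark at a temperature of 22 °C, and the labels name no further treatment. Each library is a pool of 40 to 60 seedlings harvested at ZT0, when the lights come on, so roots and shoots were measured together. The labels do not say whether the pools were grown on separate days, and p-values measure only the spread between these pools.

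Library totals ran from 18739317 to 23617717 counts. GI, the mutated gene (AT1G22770), had 183, 210 and 139 counts in the mutant pools against 68, 59 and 53, and was higher in gi-2 by 1.37 on the log2 scale (SE 0.21; edgeR adjusted p = 0.000168). Counts over a whole gene do not show whether the allele makes protein. Both organs were present, with leaf markers (5 genes, photosynthesis) summing to 20200 to 23800 CPM (TMM-scaled counts relative to the library total) in gi-2 against 37500 to 40200 CPM in Col-0, and general root markers (9 genes) to 2790 to 2970 and 4040 to 4530 CPM. Most of the root sum was PYK10, and the other 8 root markers summed to 611 to 660 CPM in gi-2 libraries and 584 to 700 CPM in Col-0 libraries. On the second principal component Col-0 replicate 1 stood apart from the other libraries. Seed storage and oleosin transcript (10 genes) summed to 359 CPM in gi-2 replicate 2, to 22.1 CPM in its replicate 1 and 61.5 CPM in its replicate 3, and to 1.16 to 10.9 CPM in Col-0.

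FAR1 (AT5G22500, chromosome 5, 7470328 to 7474133, plus strand, 10 exons) encodes one of the reductases that make the fatty alcohols bound in suberin and in root waxes. Replicates 1, 2 and 3 of gi-2 reached 201, 132 and 197 CPM, and those of Col-0 reached 10.6, 10.9 and 11.2 CPM, from 4428, 3147 and 3941 counts against 191, 222 and 222. All 3 gi-2 libraries lay far above all 3 Col-0 libraries, and the lowest gi-2 library was 11.7 times the highest Col-0 library. Means of 177 ± 38.9 CPM and 10.9 ± 0.320 CPM (SD, n = 3 each) gave a 16.2-fold difference. On the log2 scale this was 4.02 (SE 0.15), rank 16 from the top among 19699 tested genes. Within gi-2 the lowest value was that of replicate 2, where the sum of seed storage and oleosin transcript was highest. Without this replicate the log2 fold change was 4.19. With Col-0 replicate 1 left out as well it was 4.17.

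FAR4 (AT3G44540, chromosome 3, 16123426 to 16128030) and FAR5 (AT3G44550, chromosome 3, 16137576 to 16142270), also on the plus strand with 10 exons, are tandem neighbours that encode reductases of shorter chains than the FAR1 enzyme uses. FAR4 read 8.62, 8.83 and 12.5 CPM across the gi-2 pools, against 10.7, 11.9 and 12.5 CPM across the wild-type pools, and the genotypes overlapped. FAR5 read 7.35, 10.4 and 8.86 CPM across the gi-2 pools, against 9.20, 17.9 and 12.1 CPM across the wild-type pools, again with overlap. Neither shared the rise of FAR1, with log2 fold changes of -0.24 for FAR4 (SE 0.17) and -0.56 for FAR5 (SE 0.21). The FAR5 value rested partly on Col-0 replicate 2, its highest library, and was -0.27 without it, while it was -0.76 without Col-0 replicate 1 and -0.89 with gi-2 replicate 2 left out besides. The FAR4 value was -0.15 without gi-2 replicate 1, -0.16 without gi-2 replicate 2 and -0.43 without gi-2 replicate 3. In Col-0 the reductase genes had similar levels per length, at 4.81 ± 0.141 RPKM for FAR1, 4.39 ± 1.49 RPKM for FAR5 and 3.99 ± 0.308 RPKM for FAR4 (TMM-scaled CPM per kilobase of gene length, SD, n = 3). FAR1 made up 36.8% ± 4.27 of the summed RPKM of these 3 genes in Col-0 and 92.1% ± 2.15 in gi-2 (SD, n = 3 each). An antisense gene covers 41.2% of the exonic bases of FAR1, and another 6.74% of those of FAR4. Levels per length, their order and the shares of FAR1, here and below, are uncertain to that extent.

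**Figure D1:**
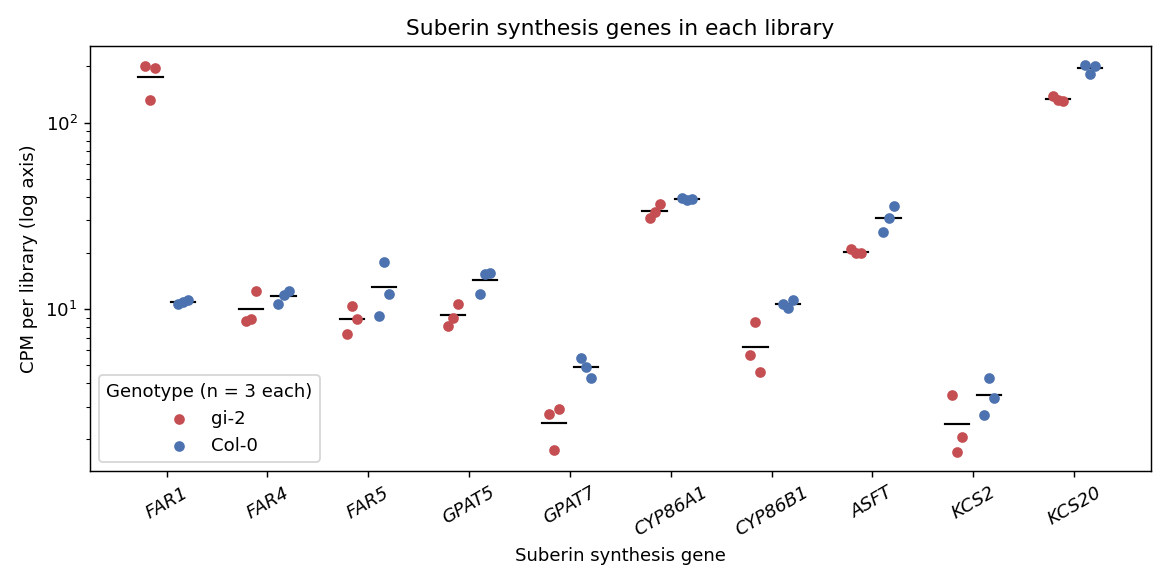
Level of each suberin synthesis gene in each library, in CPM on a log axis, with gi-2 in red, Col-0 in blue and a black line at the mean of 3 libraries. FAR1 lies between 132 and 201 CPM in gi-2 and near 11 CPM in Col-0, while for the other 9 genes the gi-2 mean lies below the Col-0 mean.

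The start regions of the reductase genes are shown because FAR4 and FAR5 did not share the rise of FAR1 in gi-2. Any part of these regions in that difference was not tested. Each runs from 250 bases before to 50 bases after the annotated start, 5′ to 3′ on the gene's strand, from the RefSeq TAIR10.1 genome. Capitals mark matches on either strand to any of 6 motifs searched. These were the evening element AAAATATCT, the CCA1-binding site AAAAATCT, the G-box CACGTG, the MYB-type elements ACCTACC and ACCAACC, and CCGAC, the core of the element bound by CBF cold-response factors. The FAR1 region lies at chr5:7470078-7470377, that of FAR4 at chr3:16123176-16123475 and that of FAR5 at chr3:16137326-16137625. The region of CYP86A1, chr5:23768062-23768361 on the minus strand, is added because it held the only evening element among the 10 genes.
FAR1: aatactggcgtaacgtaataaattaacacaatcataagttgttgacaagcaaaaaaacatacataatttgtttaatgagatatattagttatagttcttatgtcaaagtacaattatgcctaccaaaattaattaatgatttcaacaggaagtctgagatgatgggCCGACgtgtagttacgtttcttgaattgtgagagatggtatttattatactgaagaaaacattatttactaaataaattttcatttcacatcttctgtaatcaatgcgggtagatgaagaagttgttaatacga
FAR4: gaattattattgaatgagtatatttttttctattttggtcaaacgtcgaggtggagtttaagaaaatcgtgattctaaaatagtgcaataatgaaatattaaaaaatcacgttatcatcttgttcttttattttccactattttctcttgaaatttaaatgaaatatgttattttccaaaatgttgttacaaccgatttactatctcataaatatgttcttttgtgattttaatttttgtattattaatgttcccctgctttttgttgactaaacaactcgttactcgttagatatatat
FAR5: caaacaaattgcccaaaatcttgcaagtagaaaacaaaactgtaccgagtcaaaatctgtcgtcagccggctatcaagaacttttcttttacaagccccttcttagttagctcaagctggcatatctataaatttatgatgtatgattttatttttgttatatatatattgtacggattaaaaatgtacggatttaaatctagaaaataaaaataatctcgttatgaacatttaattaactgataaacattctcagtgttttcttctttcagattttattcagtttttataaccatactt
CYP86A1: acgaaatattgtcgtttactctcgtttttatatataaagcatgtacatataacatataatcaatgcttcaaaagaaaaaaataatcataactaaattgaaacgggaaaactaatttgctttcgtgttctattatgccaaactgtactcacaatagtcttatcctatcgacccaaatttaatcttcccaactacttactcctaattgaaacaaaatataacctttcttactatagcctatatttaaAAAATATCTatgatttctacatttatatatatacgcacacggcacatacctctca

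FAR1 held 1 match, CCGAC at positions -84 to -80 from the annotated start (position 0), and was the only member with it, against 15% of the regions of 27443 protein-coding genes. FAR4 and FAR5 held none of the 6 motifs. The evening element of CYP86A1 spanned positions -5 to 3, and 2.82% of all regions held this motif. ASFT held AAAAATCT on the opposite strand at -10 to -3 (7.88% of all regions) and GPAT7 held ACCAACC at -46 to -40 (3.29%). No member held CACGTG (7.68% of all regions) or ACCTACC (1.38%). A match describes these letters only and shows no binding.

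The FAR proteins, translated from the annotated coding sequences, are close but not near-identical. FAR1 (491 residues) was identical to FAR4 (493 residues) at 73.8% of aligned positions and to FAR5 (496 residues) at 67.7%, and FAR4 to FAR5 at 68.8%. The closest relative of FAR5 was FAR8 at 85.5%, downstream of it on the chromosome, which was listed at 0 counts in all 6 libraries. The longest stretch shared without a mismatch by the aligned coding sequences of FAR1 and FAR4 was 28 bases, positions 671 to 698 of FAR1, and is printed because such stretches limit how reads of the pair can be told apart.
FAR1 and FAR4: caagggcaaagcttcatggatggccaaa

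An antisense gene, AT5G22505, lies within FAR1 (chromosome 5, 7472540 to 7473849, minus strand) and covers 935 of its 2268 exonic bases, 41.2%. It was listed at 0 counts in all 6 libraries. The libraries carry no strand, so reads from the shared stretch cannot be told apart, and the level of FAR1 is uncertain to that extent. Of the 5 annotated genes on each side of FAR1, 4 were tested. These were looked at after the FAR1 values were known. AT5G22480 differed by 0.02 on the log2 scale (SE 0.12; edgeR adjusted p = 0.919), with -0.05 without Col-0 replicate 2, and AT5G22460 by 0.64 (SE 0.49; edgeR adjusted p = 0.358). AT5G22470, a poly(ADP-ribose) polymerase gene, was higher in gi-2 by 3.98 (SE 0.68; edgeR adjusted p = 0.000449), with 37, 133 and 22 counts against 4, 3 and 3. Without gi-2 replicate 2 its log2 fold change was 2.97, and with Col-0 replicate 1 left out besides it was 3.17. Its highest library was gi-2 replicate 2. AT5G22470 passed the filter on low counts only through its gi-2 libraries, so a lower call was not open to it. INV-E, an invertase gene on the other side, stood at -0.25 (SE 0.09; edgeR adjusted p = 0.043), a call lost in 6 of 12 alternatives (adjusted p 0.00362 to 0.161 over all). Those 6 were the replicate block (0.0621) and leaving out Col-0 replicate 2 (0.0978), Col-0 replicate 3 (0.161) or gi-2 replicate 1 (0.0891), 2 (0.0708) or 3 (0.144).

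GPAT5 and GPAT7 encode acyltransferases that join fatty acids to glycerol, GPAT5 for the suberin of roots and seed coats, and GPAT7 is its close relative with 80.9% identical residues. GPAT5 (AT3G11430, chromosome 3, 3595694 to 3597952) read 8.12, 8.92 and 10.7 CPM across the gi-2 pools, against 12.1, 15.4 and 15.6 CPM across the wild-type pools. All gi-2 values lay below all Col-0 values, with a log2 fold change of -0.64 (SE 0.16). GPAT7 (AT5G06090, chromosome 5, 1835047 to 1837037) read 2.72, 1.76 and 2.90 CPM across the gi-2 pools, against 5.43, 4.91 and 4.25 CPM across the wild-type pools, also without overlap, with a log2 fold change of -0.99 (SE 0.26). It was among the least abundant members, with 42 to 60 counts per gi-2 library. Its log2 fold change was the lowest of the 10 with all libraries, but was -0.79 without gi-2 replicate 2 and -0.70 with Col-0 replicate 1 also left out, where CYP86B1 stood lower at -1.06 and -1.05.

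CYP86A1 (AT5G58860, chromosome 5, 23765791 to 23768111, minus strand) encodes the main root hydroxylase of long fatty acids, and CYP86B1 (AT5G23190, chromosome 5, 7803141 to 7805968, minus strand) that of very long ones. CYP86A1 read 30.9, 33.0 and 36.4 CPM across the gi-2 pools, against 39.3, 38.5 and 38.8 CPM across the wild-type pools. The gi-2 libraries lay just below the Col-0 libraries, with a log2 fold change of -0.22 (SE 0.09). CYP86B1 read 5.67, 8.50 and 4.60 CPM across the gi-2 pools, against 10.7, 10.1 and 11.2 CPM across the wild-type pools, without overlap, and its log2 fold change was -0.77 (SE 0.21). Here gi-2 replicate 2 was the highest gi-2 library, the reverse of FAR1 and GPAT7, and without it the log2 fold change was -1.06.

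ASFT (AT5G41040, chromosome 5, 16431304 to 16433305) encodes the transferase that adds ferulate to hydroxylated fatty acids and so links the aromatic and lipid parts of suberin. It read 21.1, 19.9 and 20.0 CPM across the gi-2 pools, against 26.0, 30.9 and 35.7 CPM across the wild-type pools. The gi-2 libraries lay close together and below every Col-0 library, with a log2 fold change of -0.60 (SE 0.12). Its end overlaps that of AT5G41050 by 63 bases, 3.46% of the exonic bases of ASFT. FAR4 shares 198 bases at its start with AT3G06845 on the other strand, which was listed at 0 counts.

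KCS20 and KCS2 encode elongases that act redundantly in very long fatty acids for suberin and cuticular wax. KCS20 (AT5G43760, chromosome 5, 17585523 to 17588733) was the most abundant member in Col-0, with 203, 183 and 201 CPM, and stood at 139, 132 and 131 CPM in gi-2. The genotypes did not overlap and the log2 fold change was -0.55 (SE 0.07), the most precise of the 10. KCS2 (AT1G04220, chromosome 1, 1119699 to 1122786, minus strand) read 3.45, 1.72 and 2.05 CPM across the gi-2 pools, against 2.71, 4.27 and 3.34 CPM across the wild-type pools. The genotypes overlapped, with a log2 fold change of -0.52 (SE 0.32) that ran from -0.88 without gi-2 replicate 1 to -0.32 without gi-2 replicate 2 and was -0.34 without Col-0 replicate 2. An RNA gene on the other strand, AT1G04247, covers 61.5% of the exonic bases of KCS2, so its low level is uncertain. The encoded proteins were 86.1% identical, and the coding sequences shared a longest run of 53 bases (positions 1375 to 1427 of KCS2), printed for the same reason, since KCS2 is rare and KCS20 abundant.
KCS2 and KCS20: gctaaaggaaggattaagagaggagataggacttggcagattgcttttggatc

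The 10 genes thus did not move together. FAR1 alone had a positive log2 fold change, and the other 9 ranged from -0.99 to -0.22 with a median of -0.56, where the median over all 19699 tested genes was 0.00. For 7 genes the gi-2 and Col-0 libraries fell apart without overlap (45.3% of all tested genes did), FAR1 with gi-2 above (22.9% of all) and 6 with gi-2 below (22.4% of all). By the threshold used for all genes (edgeR, Benjamini-Hochberg adjusted p under 0.05), 6 of the 10 members were called (32.6% of all genes were), 1 of them higher (16.3% of all) and 5 lower (16.2% of all). As the members were chosen with this comparison in view, nothing is read from these counts. In whole seedlings, fewer cells of a type and less RNA per cell cannot be told apart.

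The order of levels per length changed at the top. In Col-0, KCS20 led at 88.4 ± 4.85 RPKM, followed by CYP86A1 at 20.8 ± 0.231, ASFT at 16.9 ± 2.65 and GPAT5 at 7.17 ± 0.980 RPKM (SD, n = 3), each above the next in every library. FAR1, CYP86B1, FAR5 and FAR4 followed between 4.81 and 3.99 RPKM, and each overlapped its neighbour in this order, before GPAT7 at 2.59 and KCS2 at 1.68 RPKM. In gi-2, FAR1 led at 77.9 ± 17.1 RPKM, although its lowest library (58.1 RPKM) lay just below the KCS20 range of 59.0 to 62.6 RPKM. CYP86A1, ASFT and GPAT5 then followed as in Col-0, at 17.9, 11.2 and 4.62 RPKM, and GPAT5, FAR4, FAR5 and CYP86B1 overlapped stepwise.

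The summed level of the other 9 genes was 105 to 107 RPKM in the gi-2 libraries against 150 ± 4.93 RPKM in Col-0, while with FAR1 the sum was 184 ± 17.9 and 155 ± 4.93 RPKM (SD, n = 3 each). FAR1 made up 45.6%, 35.7% and 44.9% of that sum in the gi-2 libraries and 3.05%, 3.16% and 3.07% in the Col-0 libraries. KCS20 went from 56.9% ± 2.63 in Col-0 to 33.1% ± 3.15 in gi-2, a share that depends on the FAR1 level in the same sum. Its own level was 88.4 RPKM in Col-0 and 60.3 RPKM in gi-2. Without FAR1 and KCS20 the sum was 62.2 ± 4.52 RPKM in Col-0 and 45.3 ± 2.21 RPKM in gi-2. The sum with FAR1 thus hid opposite differences in its parts.

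**Figure D2:**
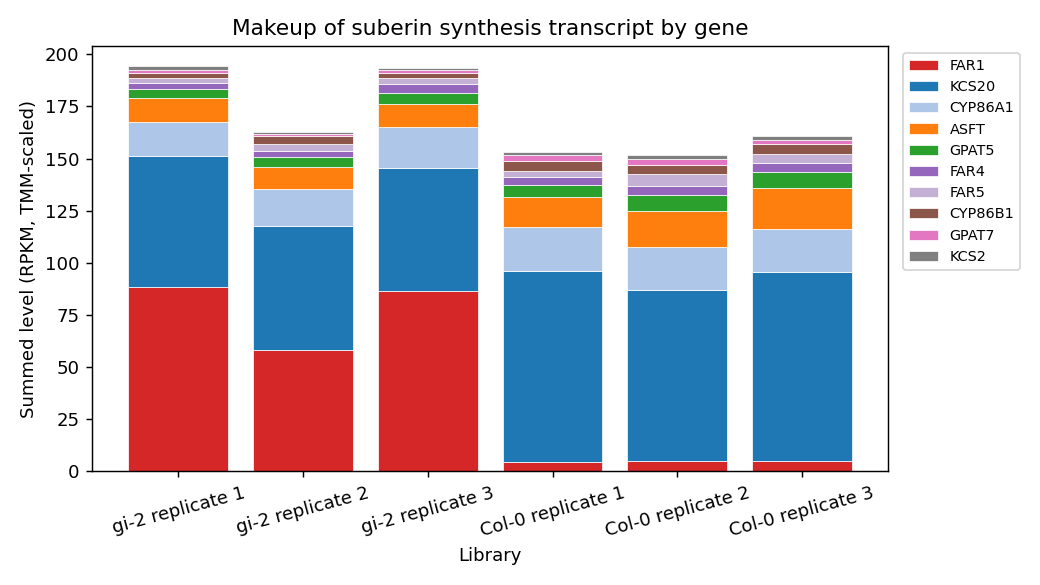
Summed level of the 10 suberin synthesis genes in each library, in TMM-scaled RPKM, with 1 coloured segment per gene. FAR1 is a thin segment of 3.05% to 3.16% in Col-0 and the segment of 35.7% to 45.6% in gi-2, and the remaining segments together are shorter in gi-2.

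Variation among replicates also differed between the members. FAR1 varied little in Col-0, with a coefficient of variation of 2.93%, and more in gi-2, with 22.0%. ASFT showed the opposite order, with 3.38% in gi-2 and 15.6% in Col-0. The least abundant gene, KCS2, varied most in gi-2, at 38.2%, and FAR5 most in Col-0, at 33.9%.

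Whether the steps around these enzymes differed was tested in further gene lists, none of which holds one of the 10 genes. These lists were also chosen with earlier results of these data known. Their counts and p-values are therefore no independent support. Over all tested genes 16.3% were called higher and 16.2% lower, the background for the counts in this and every later list. Of 14 partners in elongation, activation, export and esterification, 13 were tested, of which 7 fell and 1 rose in the mutant, with a median log2 fold change of -0.27. ABCG6, one of the half-size transporters needed for suberin in roots and seed coats, fell by 0.82 (SE 0.09; edgeR adjusted p = 1.12e-05). The elongase gene KCS1 fell by 0.61 (SE 0.08; edgeR adjusted p = 3.58e-05) and LTPG15, a lipid transfer protein gene of seed coat suberin, fell by 0.78 (SE 0.11; edgeR adjusted p = 8.95e-05). FACT, which esterifies the fatty alcohols that reductases such as FAR1 make with caffeate for root wax, had means of 19.6 and 28.8 CPM in gi-2 and Col-0 and fell by 0.55 (SE 0.12; edgeR adjusted p = 0.00267). ABCG1, another transporter of root suberin, was the partner that rose, by 0.96 (SE 0.15; edgeR adjusted p = 0.000272), with 427, 353 and 302 counts against 173, 150 and 167. ABCG2 was not tested, with 0 counts over the gi-2 libraries and 4 over the Col-0 libraries.

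Of 9 listed transcription factors of suberin and the endodermis, 8 were tested, 1 was called higher and none lower. The one called was MYB36, which also stands in the endodermis list and is described there. MYB41, an activator of the whole pathway, had 8, 19 and 11 counts in gi-2 against 20, 32 and 21 (log2 fold change -1.12, SE 0.48; edgeR adjusted p = 0.0889), with the gi-2 libraries below the Col-0 libraries after scaling. MYB93 had 139, 140 and 129 counts against 204, 137 and 137, without overlap after scaling (-0.42, SE 0.21; edgeR adjusted p = 0.15). Its highest library was Col-0 replicate 1, and the log2 fold change was -0.15 without it and -0.10 with gi-2 replicate 2 left out besides. MYB92 had 154, 191 and 124 counts against 136, 142 and 126, and NAC046 had 143, 122 and 110 against 98, 110 and 118, with log2 fold changes of 0.02 (SE 0.18) and 0.03 (SE 0.19) whose sign changed when single libraries were left out. MYB53 (34, 27 and 31 counts against 22, 59 and 27), MYB9 (13, 6 and 12 against 5, 20 and 13) and MYB107 (18, 10 and 24 against 23, 5 and 24) overlapped between genotypes. MYB39 had 2 to 8 counts per library and was not tested. At these counts only large differences in the rarer factors were detectable. Other annotated genes overlap MYB9, MYB53 and MYB92 and, among the genes named elsewhere, ABCG1, ABCG2, 4CL1, REF1, CASP1, SGN3, BDG, EXPA7, PYK10, SKOR, OLEO1, OLEO2, TT12 and RCA, so part of their reads may belong to another gene.

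The endodermis list holds genes of the Casparian strip, the lignin band that this layer forms before suberin. Of 11 endodermis genes, 10 were tested, 6 were higher and none lower, with a median log2 fold change of 0.49. SGN1, a kinase gene of the strip, rose by 0.97 (SE 0.11; edgeR adjusted p = 1.03e-05), and the scaffold genes CASP1 and CASP2 rose by 0.56 (SE 0.09) and 0.59 (SE 0.12). CASP1 had 1270, 1210 and 1235 counts in gi-2 against 719, 776 and 738. SCR, which specifies the layer, stood at -0.12 (SE 0.09; edgeR adjusted p = 0.334), and SGN3, the receptor gene, at -0.07 (SE 0.09; edgeR adjusted p = 0.638). MYB36, the activator of strip genes, had 153, 128 and 132 counts against 45, 81 and 93 (log2 fold change 0.75, SE 0.24; edgeR adjusted p = 0.028, and 0.0147 to 0.106 over 12 alternatives). Its call was lost without Col-0 replicate 1 (0.0666), Col-0 replicate 2 (0.0605), gi-2 replicate 1 (0.106) or gi-2 replicate 3 (0.0865). The summed endodermis list stood at 241 to 262 CPM in gi-2 and 194 to 200 CPM in Col-0, and its part in the values of the suberin genes was not tested.

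**Figure D3:**
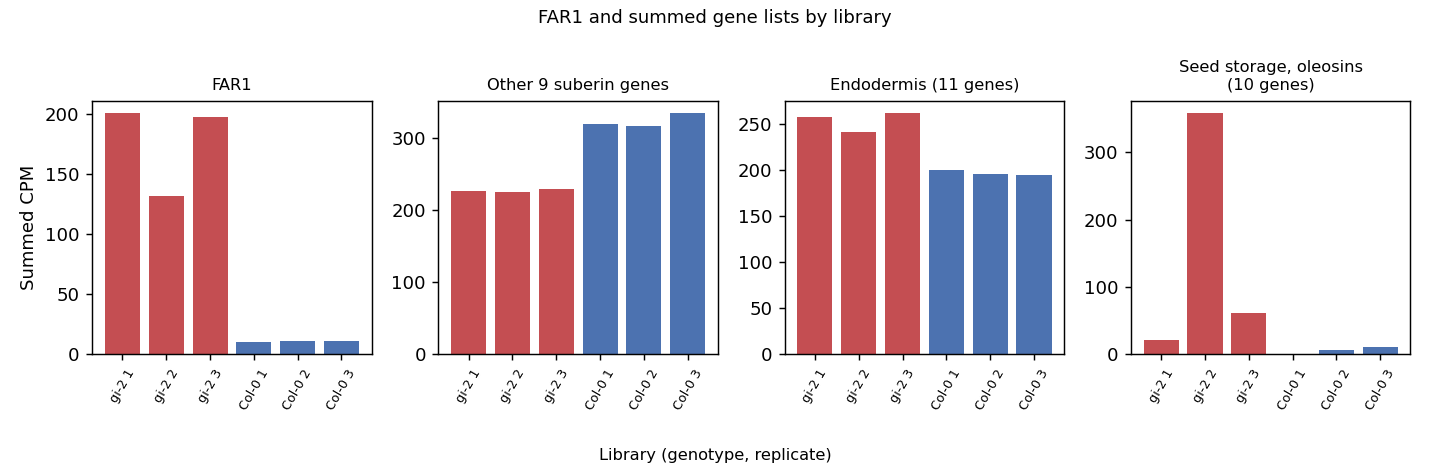
FAR1 and the summed CPM of 3 gene lists in each library (gi-2 in red, Col-0 in blue, 1 bar per library). The other 9 suberin genes sum to 225 to 229 CPM in gi-2 and 317 to 335 CPM in Col-0, the endodermis list is higher in gi-2, and seed transcript is highest in gi-2 replicate 2.

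The phenylpropanoid pathway supplies the ferulate of suberin. Of its 14 listed genes, all tested, 12 were lower and 1 higher, with a median of -0.46. PAL2, of the first step, fell by 0.82 (SE 0.07; edgeR adjusted p = 1.14e-06) and HCT, which leads towards ferulate and lignin units, fell by 0.63 (SE 0.08; edgeR adjusted p = 2.85e-05). 4CL1 fell by 0.52 and PAL1 by 0.48. REF1, the aldehyde dehydrogenase gene that forms ferulate itself, rose by 0.47 (SE 0.09; edgeR adjusted p = 0.000773), against the direction of its list and of ASFT.

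Cutin, the polyester of the shoot surface, is made by relatives of the suberin enzymes. Of 13 cutin genes 12 were tested, 10 were lower and none higher, with a median of -0.44. HTH, an oxidoreductase gene of cutin, fell by 1.56 (SE 0.13; edgeR adjusted p = 8.80e-07) and DCR, an acyltransferase gene, fell by 1.24 (SE 0.12; edgeR adjusted p = 2.97e-06). BDG and LACS2, of cuticle assembly and fatty acid activation, fell by 0.60 and 0.54. LACS2 also stands among the suberin partners. Lower values were thus found in genes of both polyesters, and whether they differ in size was not tested.

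Among the other genes of the FAR, GPAT, CYP86 and KCS families, 2 of 27 tested were higher and 9 lower (39 genes in all; median -0.12). This list shares KCS1 with the partners and GPAT4, GPAT6, GPAT8 and CYP86A8, among others, with the cutin list, so these calls are counted in both. Among the other FAR genes, CER4, of stem wax alcohols, had 43, 40 and 47 counts in gi-2 against 39, 62 and 106 and did not pass (log2 fold change -0.83, SE 0.34; edgeR adjusted p = 0.0808, and 0.0126 to 0.442 over 12 alternatives). Without Col-0 replicate 1 it passed (-1.09; edgeR adjusted p = 0.0126), and also with gi-2 replicate 2 left out besides (-0.97; 0.0298), while without Col-0 replicate 3 it stood at -0.39 (0.442). MS2 had 2 counts in all, FAR6 had 6, and FAR7 and FAR8 had 0. FAR1 was therefore the only one of the 8 FAR genes with a positive log2 fold change among the 4 that were tested. KCS12 and KCS8 were the relatives that rose, by 1.47 (SE 0.10; edgeR adjusted p = 1.10e-07) and 1.27 (SE 0.10; edgeR adjusted p = 2.66e-07), while KCS20 and KCS2 did not share this direction. KCS9 fell by 0.62. GPAT3 fell by 1.46 (SE 0.08; edgeR adjusted p = 1.97e-08), GPAT4 by 0.36 (-0.21 with gi-2 replicate 2 and Col-0 replicate 1 both left out), GPAT6 by 0.48 and GPAT8 by 0.25, and CYP86A8 fell by 0.40. The GPAT6 call was lost without Col-0 replicate 2 (edgeR adjusted p = 0.0694) or gi-2 replicate 2 (0.0594), in a range of 0.00572 to 0.0694. That of GPAT8 was lost without Col-0 replicate 1 (0.0623) or 3 (0.0535), without gi-2 replicate 1 (0.0963) or 2 (0.142), and with gi-2 replicate 2 and Col-0 replicate 1 both left out (0.208), in a range of 0.0234 to 0.208.

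**Figure D4:**
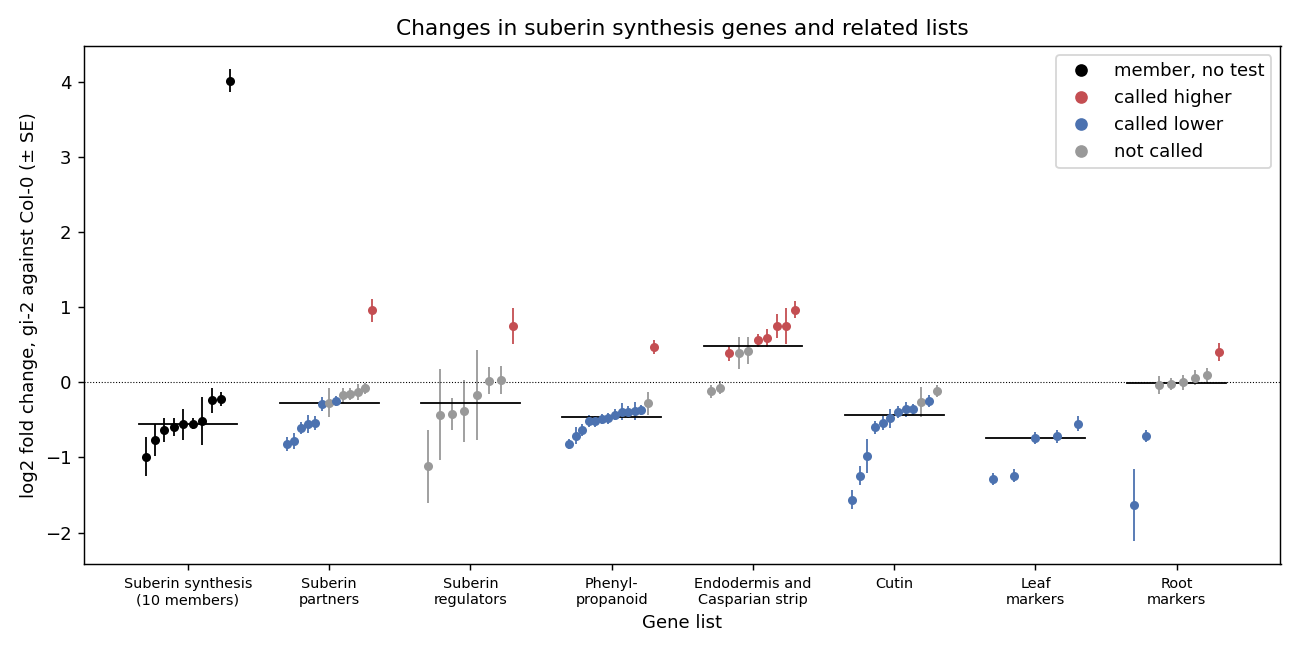
Log2 fold change of gi-2 against Col-0 with its SE for the tested genes of 8 lists, with a black line at each median. The 10 suberin synthesis genes are in black because no test is given for them. FAR1 lies at 4.02 and the other 9 between -0.99 and -0.22, while endodermis genes lie mostly above 0.

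Markers of other tissues also differed, and their part in the values of the suberin genes was not tested. Leaf markers were lower in 5 of 5 cases, with RCA down by 1.29 and RBCS3B by 1.24 on the log2 scale; RBCS and LHCB genes have near-identical copies that can share reads. LHCB2.1 fell by 0.74 and LHCB1.1 by 0.72. Of 6 root hair markers 3 were lower, and the list summed to 20.7 to 23.9 CPM in gi-2 and 37.3 to 50.4 CPM in Col-0. LRX1, a wall protein gene, fell by 1.21, PRP3 by 1.22 and COBL9 by 0.69. The other 3 were not called, with log2 fold changes of -0.59 for EXPA7 (SE 0.30), 0.56 for RHD6 (SE 0.48) and -0.00 for RSL4 (SE 0.61). The COBL9 call was lost without Col-0 replicate 2 (edgeR adjusted p = 0.0541), Col-0 replicate 3 (0.0628), gi-2 replicate 1 (0.0818) or gi-2 replicate 3 (0.0712), in a range of 0.0219 to 0.0818. Of 9 general root genes 8 were tested, with PYK10 and IRT1 lower by 0.72 and 1.63 and SKOR, a stele channel gene, higher by 0.40. SKOR did not pass without gi-2 replicate 2 (0.0604), gi-2 replicate 3 (0.0752) or gi-2 replicate 2 and Col-0 replicate 1 together (0.0802), in a range of 0.0167 to 0.0802. IRT1 did not pass without Col-0 replicate 2 (0.0812) or with DESeq2 (0.158), in a range of 0.00103 to 0.158. Its log2 fold change was -2.26 without gi-2 replicate 3 and -1.06 with gi-2 replicate 2 and Col-0 replicate 1 both left out.

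Seed coats also make suberin, but the seed coat markers other than MUM2 gave little signal. BAN had 2 counts and TT12 had 1 in all libraries together, and TT10 had 9 to 20 per library without a call. MUM2, a galactosidase gene of seed coat mucilage, had 1519, 1610 and 1497 counts in gi-2 against 750, 956 and 1106. It rose by 0.55 (SE 0.10; edgeR adjusted p = 0.000831) and made up nearly all of the summed list. That sum was 68.2 to 75.4 CPM in gi-2 and 42.2 to 56.5 CPM in Col-0. Of 10 seed storage and oleosin genes 4 were tested and all 4 were higher in gi-2. Among them CRU3 and OLEO1 passed the filter on low counts only through their gi-2 libraries. A call in the other direction was therefore not open to them, and nothing is read from the count of 4. CRA1 had 299, 6225 and 924 counts against 13, 80 and 187, CRU3 had 50, 1955 and 234 against 0, 0 and 5, and OLEO1 had 17, 130 and 23 against 0, 3 and 3, so gi-2 replicate 2 was highest for each. Among the untested genes OLEO4 had 5, 15 and 7 counts in gi-2. The seed storage genes SESA1 (32, 1 and 3), SESA2 (21, 1 and 7) and SESA3 (12, 0 and 2) were instead highest in gi-2 replicate 1. CRU2 and SESA4 had 3 counts and 1 count, all in that replicate. OLEO2 rose by 2.18, a call lost without Col-0 replicate 3 (edgeR adjusted p = 0.0682), without gi-2 replicate 2 (0.382), with Col-0 replicate 1 also left out (0.584), and with DESeq2 (0.0929), in a range of 0.00151 to 0.584. Its log2 fold change was 0.75 without gi-2 replicate 2 and 0.40 with Col-0 replicate 1 also left out. The part of seed transcript in the FAR1 values was not tested.

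The genes whose pattern over the 6 libraries lay closest to FAR1 were sought by the Euclidean distance of mean-centred log2 CPM, counting only genes whose average log2 CPM reached 1. The closest was XTH15, a xyloglucan enzyme gene of the cell wall, at a distance of 0.62, with 632, 371 and 438 CPM in gi-2 and 36.0, 25.6 and 39.5 CPM in Col-0. It was followed by AT1G11210 at 0.98, AT2G15880 (PEX3 in the table) at 1.09, the sulfotransferase gene ST2A at 1.12 and AT3G62550 at 1.14. All 5 had log2 fold changes of 3.13 to 3.83, and none stood in a list of suberin genes. They were picked for likeness in this comparison, so no test is given.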

How the data were processed

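Raw counts of reads for each gene in 6 libraries are the values the authors deposited, without scaling. The submitters' processing notes name STAR 2.5.5 and HTSeq 0.6.1, together with DESeq2 and TAIR10, and the libraries were non-directional, per the labels' protocols. How strand and multi-mapped reads were treated is not given in the sources used here. Gene length is a column of the deposited table. Start and end of 32508 of 32524 nuclear genes equalled those of RefSeq TAIR10.1, from which symbols, exons and sequences were read.

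Genotype was the only term of an edgeR 4.0.16 quasi-likelihood F test (R 4.3.3, limma 3.58.1) after TMM scaling and filterByExpr, with a minimum count of 10 and a minimum total of 15. P-values were Benjamini-Hochberg adjusted over 19699 genes, with a threshold of 0.05. An SE is the log2 fold change divided by the square root of its F statistic. The procedure was tested on simulated data. CPM are TMM-scaled, and RPKM are CPM per kilobase of gene. A floor of 3 counts corresponds to 0.127 to 0.160 CPM, covering counting error only. Replicates differed by more than sampling noise (chi-square per degree of freedom 4.92 to 15.5). Coding sequences and their translations were aligned globally with Biopython 1.88.

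The members and the lists were chosen with earlier results of these data known. Named were the members, GI, up to 4 called genes with the smallest adjusted p per list or gene family, all regulators and other FAR genes, and the 5 genes most like FAR1. A gene that this rule names is not reported here. The neighbours of FAR1, FACT, ABCG2, SCR, SGN3, REF1, the uncalled markers and the overlapping genes were added after their values were seen. Alternatives were RLE scaling, DESeq2 1.42.0, no filter, a mean CPM of at least 1, a replicate block and leaving out libraries.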

Additional observations from a re-analysis of the deposited data

How the results depend on the processing

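The log2 fold change of FAR1 ran from 3.91 to 4.19 over 12 alternatives, and each of the other 9 members stayed below 0 in all 12. FAR5 was called lower in 6 alternatives (DESeq2, no filter, the replicate block, without Col-0 replicate 1, without gi-2 replicate 2, and without both), and GPAT7 was not called without both. The counts of called genes stayed within 1.5 times in every alternative for all genes, the members, partners, phenylpropanoid, endodermis, cutin and family lists; for suberin regulators the count of 1 higher gene ran from 0 to 1 when single libraries were left out. Leaving out both gi-2 replicate 2 and Col-0 replicate 1 gave log2 fold changes of 0.47 for MYB107 and -0.02 for MYB92, both of the other sign. Over the fits that leave out a single library, MYB107 ran from -0.63 to 0.15, MYB92 from -0.08 to 0.10, NAC046 from -0.08 to 0.10, MYB53 from -0.61 to 0.11, MYB9 from -0.79 to 0.01, AT5G22480 from -0.05 to 0.05 and TT10 from -0.45 to 0.14, so that their signs changed. None of these genes passed the threshold in any alternative, and the cause was not tested. Deviations of same-numbered replicates of the genotypes had r of 0.00207, 0.0145 and 0.0156, and those of differently numbered ones ran from -0.0188 to 0.00417. All were small, but with 3 libraries per genotype they cannot settle whether the numbers pair the pools. With the replicate block, FAR1 stood at 3.99, and 3123 genes were higher and 3038 lower. Besides the FAR5 call, which was gained, INV-E was no longer called. The other named genes refitted with the block kept their direction and call. MYB39 had too few counts for the filter.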
